A study of Danio rerio with 4 samples.

Results

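The proteases that remodel the extracellular matrix, together with their inhibitors, were examined in adult zebrafish heart RNA-seq. The genes were chosen by symbol alone: every Ensembl gene ID whose symbol begins, case ignored, with mmp, timp, adam, adamts or adamtsl followed directly by a number. This gave 69 of the 32520 gene IDs: 24 MMP, 5 TIMP, 17 ADAM and 23 ADAMTS or ADAMTSL IDs. A symbol was shared by several IDs for 17 of them, under 8 symbols such as MMP14 and TIMP2, and these are given with their ID.

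Matrix metalloproteinases (MMPs) are zinc enzymes that cleave collagens and other matrix proteins, some secreted and some held at the cell surface. Tissue inhibitors of metalloproteinases (TIMPs) bind and block them. ADAMs are membrane proteases that release the outer parts of growth factors, cytokines and receptors, ADAMTS enzymes are secreted and trim proteoglycans and procollagens, and ADAMTS-like proteins lack the protease domain. After resection of the ventricle, the zebrafish heart lays down a transient matrix that is later removed as muscle regrows.

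The fish were adults of the Ekkwill strain. The 4 groups, each with 1 library, were LEN mutant hearts at 3 days after amputation (3 dpa), LEN mutant uninjured hearts, wild-type hearts at 3 dpa and wild-type uninjured hearts. The mutants were homozygous for a deletion of LEN, an enhancer tied to the leptin b gene (lepb) in regeneration, and the wild type was labelled LEN+/+. All came from RNA of dissected hearts extracted with Trizol, and the number of hearts per library was not given. With 1 library a group, a ratio within a genotype or a state has no replicate and no p-value, and its interval compares 2 libraries and covers counting error only. A fit that pools the genotypes and the states is given where it bears on the members.

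The libraries held 34757291 counts (LEN mutant, 3 dpa), 31898971 (LEN mutant, uninjured), 35026983 (wild type, 3 dpa) and 31618442 (wild type, uninjured). The lepb gene had 2, 2, 78 and 2 counts in these libraries, in the same order. Cardiomyocyte markers such as MYL7 and cmlc1 were abundant in all 4, with a summed level over 13 IDs of 24826 and 47072 scaled CPM in the mutant 3 dpa and uninjured libraries and 25501 and 45695 in the wild-type 3 dpa and uninjured libraries. The wild-type uninjured library stood apart by liver transcripts. All 13 liver marker IDs were called lower in the mutant uninjured library than in it, and fga, FGB, FGG, serpina1 and ahsg2 had 0 counts in the mutant uninjured library. The list summed to 420.0 and 42.0 scaled CPM in the mutant 3 dpa and uninjured libraries and to 389.0 and 1449.9 in the wild-type 3 dpa and uninjured libraries. One gene, tfa, made up most of the first 3 sums, at 418.8 and 40.2 in the mutant 3 dpa and uninjured libraries and 388.0 and 360.0 in the wild-type 3 dpa and uninjured libraries.

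Levels are given as scaled CPM, counts divided by the library total and its TMM factor and put on the usual CPM scale, and differences as log2 ratios of 2 libraries with a prior count of 2, which draws ratios of low genes towards 0. Brackets hold the exact 95% counting interval of a ratio. A gene was tested when it reached 1 scaled CPM in at least 1 library. It was called higher or lower when its log2 ratio was at least 1 in size and the interval excluded 0. Of the 69 members, 52 were tested, among 16509 genes in all. The other 17 had at most 26 counts in any library. Fewer cells of a type and less RNA per cell cannot be told apart in whole hearts.

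The family as a whole took up more of the RNA after injury. Its 69 members held 0.278% of the counts in the LEN mutant 3 dpa library (Wilson 95% interval, 0.2758 to 0.2793%) against 0.114% in the LEN mutant uninjured library (0.1132 to 0.1156%). In wild type they held 0.268% at 3 dpa (0.2661 to 0.2696%) against 0.114% in uninjured hearts (0.1126 to 0.1150%). MMP2 alone supplied 19.9% and 17.8% of the members' counts in the mutant 3 dpa and uninjured libraries, and 22.9% and 19.5% in the wild-type 3 dpa and uninjured libraries.

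In the LEN mutant, 20 of the 52 tested members were called higher at 3 dpa than in uninjured hearts, and 2 were called lower. Over all tested genes 14.7% were called higher and 5.62% lower, or 20.3% in either direction. In wild type, 18 were called higher and 2 lower, where 13.2% and 6.76% of all tested genes were. The median log2 ratio of the tested members was 0.67 in the mutant and 0.58 in wild type, beside 0.04 and 0.03 over all tested genes. With the 1 gene at 0 counts in a library set at its 3-count bound, the mutant median was 0.62. In both genotypes 16 members were called higher, 4 passed in the mutant alone (MMP9, mmp13a, adam10a and ADAMTS15 ENSDARG00000033544), and 2 passed in wild type alone (ADAM9 and MMP28). Over all 16509 tested genes, 2420 were called higher in the mutant, 2187 in wild type and 1805 in both. Of the members called higher, mmp13b, mmp25b, adamtsl7, ADAMTS14 and MMP28 passed the filter through 3 dpa libraries alone. Such a filter favours a call higher at 3 dpa.

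The uninjured libraries could also be exchanged between the genotypes. In all 4 pairings of a 3 dpa with an uninjured library, 15 members were called higher, where 9.60% of all tested genes were, and none was called lower, where 1.60% of all genes were. The 15 included mmp13b, mmp25b, adamtsl7 and ADAMTS14, which passed the filter through 3 dpa libraries alone. In 29 members both 3 dpa libraries lay above both uninjured libraries (37.6% of all tested genes), and in 5 both lay below (31.2% of all tested genes, with 68.7% in either direction).

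An additive fit of genotype and injury over the 4 libraries (edgeR's quasi-likelihood test, 1 residual degree of freedom) gave 28 members higher and 2 lower at 3 dpa past a Benjamini-Hochberg adjusted p of 0.05. Over all tested genes 25.4% were higher and 20.3% lower in that fit, which was added after the data were seen. It takes the genotypes as replicates of each other, so a response that differs between them counts as spread. The smallest adjusted p-values by edgeR's test were those of adam8a (7.75e-06, log2 change 3.81) and TIMP2 ENSDARG00000075261 (7.75e-06, log2 change 3.59). MMP2 changed by 1.16 (edgeR adjusted p = 0.000142) and MMP9 by 1.39 (edgeR adjusted p = 0.00625).

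**Figure D1:**
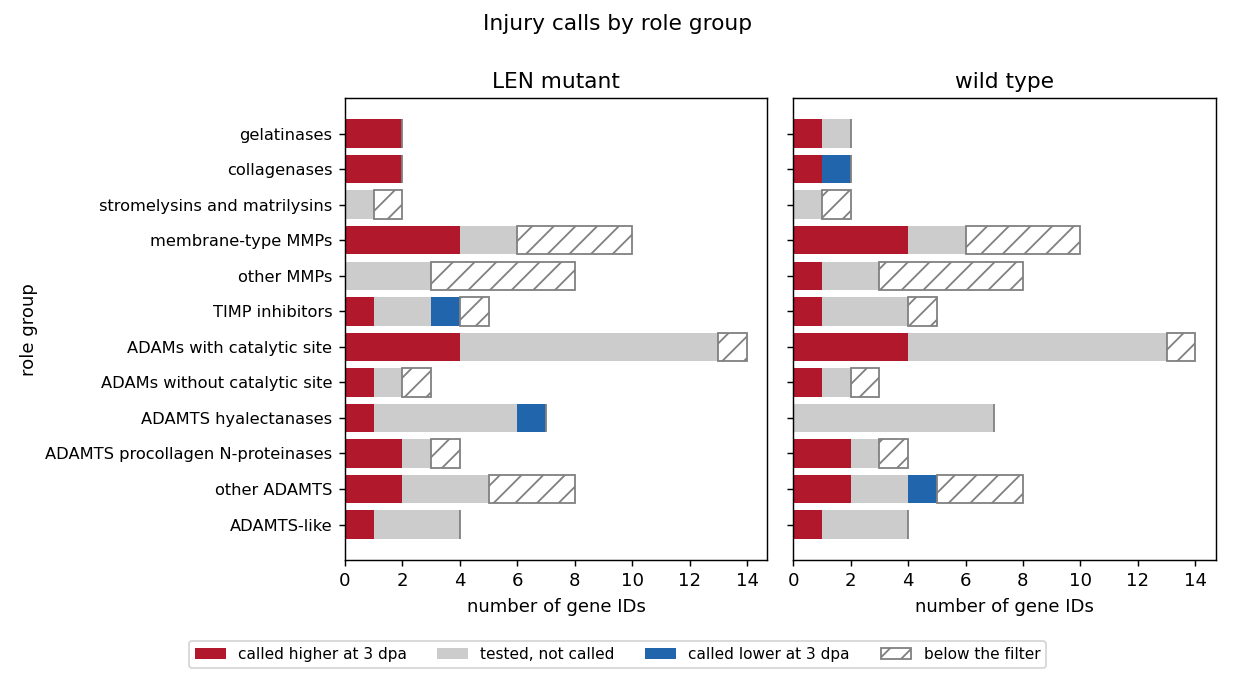
Number of gene IDs in each role group (x axis) that were called higher, not called or called lower at 3 dpa against uninjured hearts, or were below the filter, in LEN mutant (left) and wild-type hearts (right). The 6 tested membrane-type MMPs held 4 called higher in either genotype, and the 7 hyalectanases held 1 in the mutant and 0 in wild type.

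Among the gelatinases, which digest denatured collagen and basement membrane collagen, MMP2 (ENSDARG00000017676) was about 2-fold higher after injury in both genotypes. Its level was 494.9 and 226.2 scaled CPM in the LEN mutant 3 dpa and uninjured libraries and 559.7 and 243.9 in the wild-type 3 dpa and uninjured libraries. Both 3 dpa libraries stood well above both uninjured ones, with log2 ratios of 1.13 in the mutant (1.09 to 1.17) and 1.20 in wild type (1.16 to 1.24). MMP9 (ENSDARG00000042816), known in mammals from neutrophils and macrophages, differed more between the genotypes. It stood at 33.6 scaled CPM at 3 dpa and 7.75 in uninjured hearts of the mutant, and at 28.7 at 3 dpa and 17.5 in uninjured hearts of wild type. The mutant uninjured library was thus the lowest of the 4, while the 3 dpa libraries lay close together. The injury log2 ratio of MMP9 was 2.11 in the mutant (1.91 to 2.33) and 0.71 in wild type (0.56 to 0.87), and only the mutant value was called. Against the wild-type uninjured library, the mutant 3 dpa value of MMP9 was 0.94, short of a call.

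The collagenases mmp13a and mmp13b, which cut fibrillar collagen, were low in counts and unlike each other. For mmp13b (ENSDARG00000100794) there were 89 and 4 counts in the mutant 3 dpa and uninjured libraries and 171 and 5 counts in the wild-type 3 dpa and uninjured libraries. It was called higher in both genotypes, with log2 ratios of 3.56 in the mutant (2.63 to 5.94) and 4.28 in wild type (3.43 to 6.32). For mmp13a (ENSDARG00000012395) there were 76 and 20 counts in the mutant 3 dpa and uninjured libraries, and 39 and 63 in the wild-type 3 dpa and uninjured libraries. It was called higher at 3 dpa in the mutant (1.41, 0.76 to 2.28) and lower at 3 dpa in wild type (-1.06, -1.72 to -0.51). The wild-type call was lost with a prior count of 10 (-0.92) and under scaling to the total count (-0.81). With the uninjured libraries exchanged, the mmp13a ratio was -0.16 for the mutant and 0.51 for wild type, so both signs turned. The marker lists of macrophages and neutrophils had higher sums at 3 dpa than in uninjured hearts in both genotypes. The macrophage list, 18 IDs such as marco and MPEG1, summed to 766.8 and 309.9 scaled CPM in the mutant 3 dpa and uninjured libraries and to 771.9 and 287.8 in the wild-type 3 dpa and uninjured libraries, and 13 (mutant) and 12 (wild type) of 14 tested IDs were called higher. Several of these IDs share the symbol MFAP4 or MPEG1, so they are not all separate markers. Of those called higher, MFAP4 ENSDARG00000038681, ENSDARG00000088745 and ENSDARG00000090557 passed the filter through 3 dpa libraries alone. The abundant marker cd74a was not called (0.11 in the mutant and 0.34 in wild type). One MFAP4 ID had 0 counts in both uninjured libraries. MFAP4 ENSDARG00000116066, below the filter, had log2 ratios of -2.41 in the mutant and -1.42 in wild type. The neutrophil list, 6 IDs for 5 of its 9 symbols, summed to 141.8 and 61.7 scaled CPM in the mutant 3 dpa and uninjured libraries and to 126.1 and 59.7 in the wild-type 3 dpa and uninjured libraries, with none at 0. Of its 5 tested IDs, 3 were called higher in each genotype, namely CSF3R, nccrp1 and cxcr1. The last passed the filter through 3 dpa libraries alone, at 3.81 scaled CPM in the mutant and 1.9 in wild type. The granule genes lyz (-0.18 in the mutant and 0.02 in wild type) and npsn (0.02 and 0.46) were not called. The part of these leukocytes in the protease values was not tested.

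Membrane-type MMPs act at the cell surface, and in mammals MMP14 also activates the MMP2 precursor with the help of TIMP2. Of 10 IDs in this group 6 were tested, and 4 of them were called higher at 3 dpa in both genotypes. The first MMP14 ID (ENSDARG00000002235) stood at 108.9 and 29.8 scaled CPM in the mutant 3 dpa and uninjured libraries and at 115.7 and 33 in the wild-type 3 dpa and uninjured libraries. The second (ENSDARG00000008388) stood at 119.1 and 29.4 in the mutant 3 dpa and uninjured libraries and at 123.3 and 39.7 in the wild-type 3 dpa and uninjured libraries. Both copies were 3- to 4-fold higher after injury, with log2 ratios of 1.87 and 2.02 in the mutant and 1.81 and 1.63 in wild type, for the first and the second ID. One MMP15 ID (ENSDARG00000051962) followed, with 45 against 16.6 scaled CPM at 3 dpa and in uninjured hearts of the mutant, and 38.9 against 16.3 in wild type, or log2 ratios of 1.43 (1.29 to 1.58) and 1.25 (1.1 to 1.41). The low gene mmp25b, whose human counterpart is a leukocyte protease, had 94 and 26 counts in the mutant 3 dpa and uninjured libraries and 81 and 18 in the wild-type 3 dpa and uninjured libraries, giving 1.36 (0.78 to 2.10) and 1.66 (1.01 to 2.58) in the mutant and wild type on the log2 scale. The other MMP15 ID (ENSDARG00000013072) and MMP17 were not called with injury in either genotype. MMP16, MMP24, mmp17b and mmp25a did not reach the filter, and mmp25a had 0 counts in every library, which allows up to 0.0772 to 0.105 scaled CPM by the limit of 3 counts.

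The remaining MMPs gave few calls. MMP28 (epilysin) had 42 and 17 counts in the mutant 3 dpa and uninjured libraries and 32 and 8 in the wild-type 3 dpa and uninjured libraries, and was called in wild type alone (1.41, 0.44 to 2.91) and not with a prior count of 10 (0.98) or against the mutant uninjured library (0.45). MMP28 passed the filter through the mutant 3 dpa library alone, at 1.08 scaled CPM, and neither wild-type library reached it. Its mutant log2 ratio was 0.81 (0.02 to 1.77), and the difference of the responses, -0.60 (-1.88 to 0.68), included 0. MMP23B, a protease held in the membrane by its amino end, lay below its uninjured level in both 3 dpa libraries. Its levels were 55.7 and 74.4 scaled CPM in the mutant 3 dpa and uninjured libraries and 60.0 and 95.7 in the wild-type 3 dpa and uninjured libraries, with log2 ratios of -0.42 and -0.67 that were not called. MMP23B and TIMP4 ENSDARG00000100795 were the 2 members lower at 3 dpa in the additive fit, at log2 changes of -0.55 and -0.93. MMP21, known for its part in left-right asymmetry, had log2 ratios of -0.13 (-0.46 to 0.20) in the mutant and -0.22 (-0.63 to 0.19) in wild type. The values of mmp11b, a stromelysin-3 gene, were 0.31 (-0.14 to 0.79) and -0.43 (-0.82 to -0.06).

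The 17 IDs below the filter gave counts too low to compare. MMP11 reached 26 and 9 counts in the mutant 3 dpa and uninjured libraries and 23 and 15 in the wild-type 3 dpa and uninjured libraries. ADAMTS16 reached 11 and 26 in the mutant and 6 and 18 in wild type, ADAMTS17 22 and 18 against 14 and 17, ADAMTS18 21 and 17 against 16 and 23, and adam9b 9 and 2 against 9 and 25, in the same order of states. The tooth enamel proteases mmp20a and mmp20b had at most 7 counts, MMP19 at most 1, mmp30 at most 2, adamts2b at most 4, mmp23bb at most 11 and mmp17b, MMP16 and MMP24 at most 12.

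**Figure D2:**
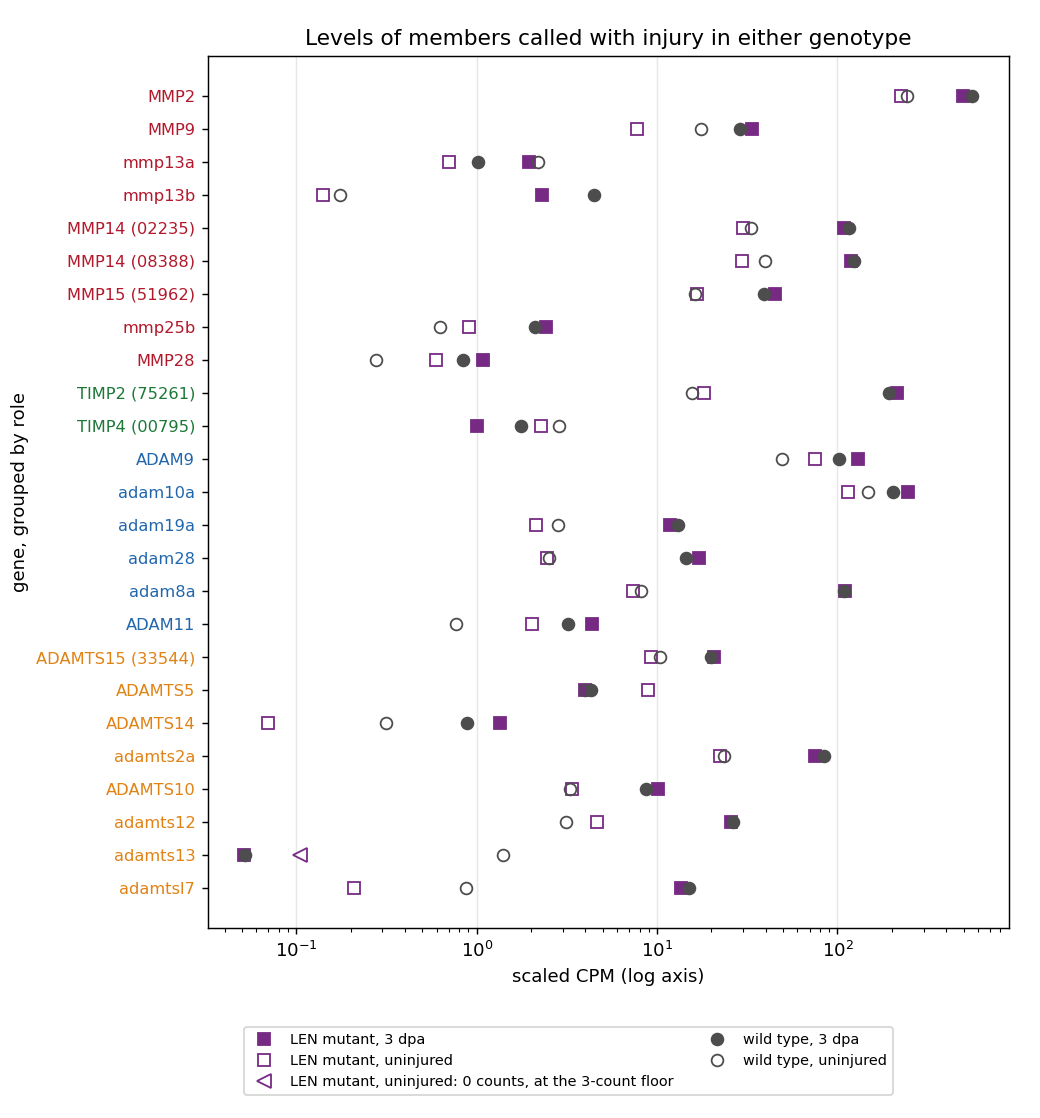
Level of each member called with injury in at least 1 genotype, as scaled CPM on a log axis, with 1 point per library (squares, LEN mutant; circles, wild type; filled, 3 dpa; open, uninjured). Label colours mark MMPs in red, TIMPs in green, ADAMs in blue and ADAMTS with ADAMTSL genes in orange, and a number in brackets is the end of the gene ID. For MMP2, both MMP14 IDs, the TIMP2 ID shown, adam8a and adamts2a both filled symbols lie to the right of both open ones. The triangle places adamts13, with 0 counts, at the 3-count floor.

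The inhibitors differed among themselves. The TIMP2 ID ENSDARG00000075261 had the largest injury ratio of the 4 tested TIMP IDs, at 212.6 and 18.1 scaled CPM in the mutant 3 dpa and uninjured libraries and 193.6 and 15.6 in the wild-type 3 dpa and uninjured libraries. That is a log2 ratio of 3.55 in the mutant (3.42 to 3.68) and 3.63 in wild type (3.5 to 3.78), or 11.7-fold and 12.4-fold. The other TIMP2 ID (ENSDARG00000061226) stood at 238.5 and 146.8 in the mutant 3 dpa and uninjured libraries and at 261.0 and 179.8 in the wild-type 3 dpa and uninjured libraries. Its log2 ratios of 0.70 (0.65 to 0.75) and 0.54 (0.49 to 0.59) excluded 0 and stayed short of a call. Of the 3 TIMP4 IDs, whose RefSeq counterparts lie side by side, 1 (ENSDARG00000111805) was below the filter, with at most 12 counts. TIMP4 ENSDARG00000100795 was called lower in the mutant, with 39 and 65 counts at 3 dpa and in uninjured hearts of the mutant and 67 and 82 counts in wild type, or log2 ratios of -1.13 (-1.79 to -0.58) and -0.69 (-1.19 to -0.22). That call was lost under the total count (-0.83), with a prior count of 10 (-0.98) and with the TIMP4 counts summed (-0.53). TIMP4 ENSDARG00000102617 had log2 ratios of 0.19 (-0.43 to 0.84) and 0.74 (0.22 to 1.32) and was not called.

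Among the ADAMs with a catalytic zinc site, 13 of 14 IDs were tested, and 4 were called higher at 3 dpa in each genotype. The largest change was that of adam8a (ENSDARG00000001452), a family member that in mammals marks leukocytes. Its levels were 110.1 and 7.36 scaled CPM in the mutant 3 dpa and uninjured libraries and 108.3 and 8.17 in the wild-type 3 dpa and uninjured libraries, with log2 ratios of 3.89 (3.70 to 4.11) and 3.72 (3.54 to 3.92). Next came adam28, a lymphocyte ADAM in mammals, at 17.1 and 2.44 in the mutant 3 dpa and uninjured libraries and 14.4 and 2.50 in the wild-type 3 dpa and uninjured libraries, or log2 ratios of 2.78 (2.45 to 3.19) and 2.49 (2.16 to 2.90). The T cell list, whose tested IDs are 4, gave 1 called higher and 1 lower with injury in the mutant and 1 and 2 in wild type, with sums of 11.7 and 20.6 scaled CPM in the mutant 3 dpa and uninjured libraries and 9.68 and 12.7 in the wild-type 3 dpa and uninjured libraries. The ID called higher, cd4-1, passed the filter through 3 dpa libraries alone. On the same list cd8a was at 0 in the mutant uninjured and wild-type 3 dpa libraries, and the part of T cells in adam28 was not tested. The gene adam19a, of a group that cleaves neuregulins in mammals, stood at 11.8 and 2.13 in the mutant 3 dpa and uninjured libraries and 13 and 2.82 in the wild-type 3 dpa and uninjured libraries (log2 ratios 2.43, 2.08 to 2.88, and 2.18, 1.86 to 2.56). In none of these 3 genes did a 3 dpa library overlap an uninjured one.

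Few of the ubiquitous sheddases were called. For adam10a, which cuts Notch receptors, levels were 246.8 and 114.3 scaled CPM in the mutant 3 dpa and uninjured libraries and 202.1 and 147.8 in the wild-type 3 dpa and uninjured libraries. Its log2 ratio passed at 1.11 (1.05 to 1.17) in mutant hearts and was 0.45 (0.40 to 0.51) in wild-type hearts, and their difference of 0.66 (0.58 to 0.74) was short of a call. ADAM9 stood at 130.3 and 75.3 in the mutant 3 dpa and uninjured libraries and 102.1 and 49.0 in the wild-type 3 dpa and uninjured libraries, giving 0.79 (0.72 to 0.86) in the mutant and 1.06 (0.97 to 1.15) in wild type on the log2 scale. The ADAM9 call in wild type and the adam10a call in the mutant were lost under upper-quartile scaling (0.95 and 0.99) and with the uninjured libraries exchanged (0.44 and 0.74). The 2 ADAM17 IDs, for the enzyme that releases tumour necrosis factor, had log2 ratios of 0.23 and 0.25 in the mutant and 0.51 and 0.50 in wild type. For adam8b the values were 0.35 and 0.69, for adam10b -0.21 and -0.08, for adam19b 0.02 and -0.31, for ADAM15 -0.04 and 0.49, and both ADAM12 IDs lay below 0 in both genotypes. None of these was called. In the additive fit, ADAM9 (log2 change 0.92), adam10a (0.78), both ADAM17 IDs (0.37 each) and adam8b (0.52) were among the members higher at 3 dpa. There, adam10b, adam19b, ADAM15 and both ADAM12 IDs did not pass in either direction.

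The ADAMs without a catalytic site are known mainly as adhesion proteins of nervous tissue. ADAM11 had 170 and 58 counts in the mutant 3 dpa and uninjured libraries and 123 and 22 in the wild-type 3 dpa and uninjured libraries. It was called higher in both genotypes, at log2 ratios of 1.09 (0.67 to 1.57) and 1.99 (1.41 to 2.79), the first of which was 0.97 under upper-quartile scaling and the second 0.65 against the mutant uninjured library. ADAM23 was not called (-0.29 in both), and ADAM22 had at most 15 counts. In the RefSeq list, which uses another assembly than the counts, 23 of the 46 members placed by symbol overlap another gene. Among them, ADAM11 overlaps fkbp10b, adam8a overlaps znf511, mmp13b overlaps inpp5ka and adamts13 overlaps grk5l. MMP9 overlaps dclre1b, adora1b and zgc:110353. IDs that share a symbol are not among the 46. Of the RefSeq copies of such symbols, timp2a overlaps cyth1b, timp2b overlaps LOC101883359 and mmp15b overlaps LOC101882566. The copies timp4.1, timp4.2 and timp4.3 overlap syn2b. The IDs of these symbols were not assigned to copies. The strand setting of the counting is not given in the sources used here, so reads of such partners may not be separable.

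**Figure D3:**
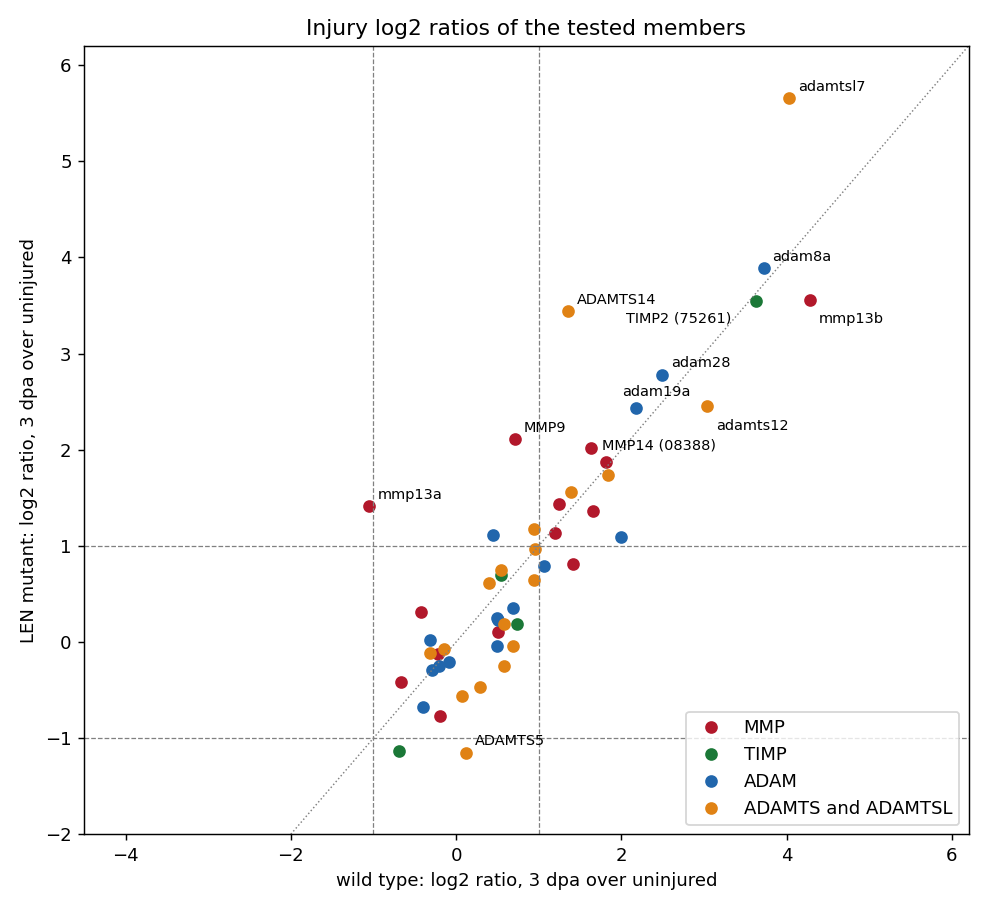
Log2 ratio of 3 dpa over uninjured hearts in the LEN mutant (y axis) against that in wild type (x axis) for the tested members, 1 point per gene ID, without adamts13 (at most 2 counts in both mutant libraries), with the threshold of 1 dashed and equal ratios dotted. Most points follow the dotted line, while adamtsl7, ADAMTS14, MMP9 and mmp13a lie above it and ADAMTS5 lies below it. Number in brackets: end of the gene ID.

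Of the 3 tested procollagen N-proteinases, which trim the amino end of fibrillar procollagens, 2 were called higher in both genotypes. The more abundant, adamts2a (ENSDARG00000075930), stood at 75.1 and 22.4 scaled CPM in the mutant 3 dpa and uninjured libraries and 84.3 and 23.5 in the wild-type 3 dpa and uninjured libraries (log2 ratios 1.74, 1.62 to 1.87, and 1.84, 1.72 to 1.96). ADAMTS14 was near the filter, with 52 and 2 counts in the mutant 3 dpa and uninjured libraries and 34 and 9 in the wild-type 3 dpa and uninjured libraries. It passed the filter through the mutant 3 dpa library alone. Its plain ratio in the mutant was 19.2-fold with a counting interval of 5.05 to 162.6, and its log2 ratio in wild type was 1.35 (0.41 to 2.75), or 0.96 with a prior count of 10. ADAMTS3 had 0.64 (0.31 to 1) and 0.94 (0.53 to 1.42) and was not called. Procollagen substrates differed in the same direction: COL1A2, at 104606 and 10753 counts in the mutant 3 dpa and uninjured libraries and 129179 and 14219 in the wild-type 3 dpa and uninjured libraries, had log2 ratios of 2.84 and 2.77.

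The 7 hyalectanases, which cut versican and aggrecan, were all tested and gave 1 call each way in the mutant and 0 in wild type. Their median log2 ratio was -0.04 in the mutant and 0.58 in wild type. ADAMTS15 ENSDARG00000033544 was called in the mutant (1.17, 0.97 to 1.38) and lay just short in wild type (0.94, 0.75 to 1.14), with 20.8 against 9.21 scaled CPM at 3 dpa and in uninjured hearts of the mutant and 19.9 against 10.4 in wild type. With the counts of both ADAMTS15 IDs summed, the mutant ratio was 0.37, short of a call. The other ADAMTS15 ID, ENSDARG00000029124, was among the most abundant of the family, at 69.5 and 60.8 scaled CPM in the mutant 3 dpa and uninjured libraries and 70.8 and 47.2 in the wild-type 3 dpa and uninjured libraries. Its log2 ratios of 0.19 (0.10 to 0.28) and 0.58 (0.49 to 0.68) were not called. In the RefSeq list 1 ADAMTS15 copy overlaps 1 ADAMTS8 copy, so the counts of these 4 IDs are uncertain. ADAMTS9 stood at 36.2 and 43.1 scaled CPM in the mutant 3 dpa and uninjured libraries and at 36.8 and 24.6 in the wild-type 3 dpa and uninjured libraries. Its log2 ratios were -0.25 (-0.36 to -0.14) in the mutant and 0.58 (0.45 to 0.71) in wild type, with a difference of -0.83 (-1 to -0.66) that was not called. Both ADAMTS8 IDs were likewise above wild type in the uninjured mutant library, ENSDARG00000007709 at 33.9 against 21.0 scaled CPM and ENSDARG00000058252 at 15.9 against 9.60, with genotype log2 ratios of 0.69 and 0.72 that were not called.

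ADAMTS1 and ADAMTS5, neighbours in the RefSeq list with no gene between them, behaved unlike each other. ADAMTS1 had log2 ratios of 0.61 (0.44 to 0.78) in the mutant and 0.40 (0.25 to 0.56) in wild type. ADAMTS5 (ENSDARG00000100307) had 155 and 255 counts in the mutant 3 dpa and uninjured libraries and 165 and 114 in the wild-type 3 dpa and uninjured libraries. The mutant uninjured library alone was high, and the injury ratio of ADAMTS5 was -1.15 in mutant hearts (-1.45 to -0.86), a call, and 0.12 in wild-type hearts (-0.23 to 0.48), no call. The call in the mutant was lost under the total count (-0.83), and against the wild-type uninjured library the ratio was 0.01.

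Of the other ADAMTS enzymes, adamts12 and ADAMTS10 were called higher in both genotypes. The level of adamts12, a relative of the enzyme that cuts cartilage oligomeric matrix protein, was 25.6 and 4.64 scaled CPM in the mutant 3 dpa and uninjured libraries and 26.2 and 3.13 in the wild-type 3 dpa and uninjured libraries (log2 ratios 2.45, 2.20 to 2.73, and 3.04, 2.76 to 3.40). ADAMTS10, which binds fibrillin, stood at 10.1 and 3.38 in the mutant 3 dpa and uninjured libraries and 8.68 and 3.27 in the wild-type 3 dpa and uninjured libraries (1.56, 1.26 to 1.92, and 1.39, 1.08 to 1.76). ADAMTS7 came close, at 0.97 and 0.96, and passed in both genotypes under the total count (1.29 and 1.22). The enzyme that cuts von Willebrand factor, adamts13, had 2 and 0 counts in the mutant 3 dpa and uninjured libraries and 2 and 40 in the wild-type 3 dpa and uninjured libraries. It was thus detected above 3 counts in the wild-type uninjured library alone, at 26.7-fold below that library in wild type at 3 dpa (6.91 to 227.7). Mammalian liver is a main source of this enzyme, and the wild-type uninjured library is the one with the liver transcripts given above, whose part in adamts13 was not tested. Against the mutant uninjured library both counts were at or under 3, and no fold is given.

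Among the 4 ADAMTS-like IDs, adamtsl7 (ENSDARG00000055439) had the largest log2 ratio of all tested members in the mutant. There were 526 and 6 counts in the mutant 3 dpa and uninjured libraries and 578 and 25 in the wild-type 3 dpa and uninjured libraries, giving 5.66 (4.88 to 7.47) in the mutant and 4.03 (3.54 to 4.76) in wild type on the log2 scale. The 3 dpa libraries were alike and the uninjured ones were not. ADAMTSL2, a fibrillin-binding protein, had 0.75 (0.31 to 1.24) and 0.54 (0.09 to 1.02), ADAMTSL3 -0.07 and -0.15, and adamtsl5 -0.11 and -0.31, none called.

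Most markers listed for fibroblasts and epicardium were higher at 3 dpa together with MMP2, both MMP14 IDs, TIMP2 ENSDARG00000075261 and adamts2a. The fibroblast list summed to 7725 and 1239 scaled CPM in the mutant 3 dpa and uninjured libraries and to 9251 and 1506 in the wild-type 3 dpa and uninjured libraries, and 6 of 8 IDs were called higher in each genotype. These 6, col1a1a, COL1A2, COL5A1, POSTN ENSDARG00000104267, DCN and LUM, are themselves matrix genes. PDGFRA (0.16 in the mutant and 0.24 in wild type) and POSTN ENSDARG00000043806 (0.47 and 0.51) were not called. The epicardial list, among them TCF21 and WT1, summed to 891.0 and 316.2 in the mutant 3 dpa and uninjured libraries and to 954.2 and 308.6 in the wild-type 3 dpa and uninjured libraries, with 4 (mutant) and 5 (wild type) of 5 tested IDs called higher. The endothelial and endocardial list summed to 1399 and 1770 in the mutant 3 dpa and uninjured libraries and to 1205 and 1681 in the wild-type 3 dpa and uninjured libraries, with 0 of 7 called in either direction. None of the IDs of these 3 lists was at 0 in any library, and the part of these cells in the protease values was not tested.

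Between the genotypes in uninjured hearts, 7 of the 52 tested members were called higher in the mutant and 4 lower, where 3.92% and 4.09% of all tested genes were, or 8.01% in either direction. The median log2 ratio of the members was 0.04, beside -0.03 over all tested genes. The 4 lower ones were MMP9, at 7.75 scaled CPM in the mutant and 17.5 in wild type (-1.17, -1.41 to -0.94), mmp13a with 20 and 63 counts (-1.57, -2.45 to -0.90), adamtsl7 with 6 and 25 counts (-1.79, -3.63 to -0.73) and adamts13 with 0 and 40 counts. Set against 3 counts, adamts13 was at least 13.3-fold lower in the mutant uninjured library. It passed the filter through the wild-type uninjured library alone. The wild-type uninjured library of this comparison is the one with liver transcripts. The 7 higher ones were ADAM11, ADAM12 ENSDARG00000116062, ADAM17 ENSDARG00000093093, ADAMTS5, ADAMTS6, ADAMTSL3 and MMP15 ENSDARG00000013072, at log2 ratios between 1.06 and 1.78. ADAMTS6, a relative of the fibrillin-binding ADAMTS10, had 169 and 97 counts in the mutant and wild-type 3 dpa libraries and 173 and 59 in the mutant and wild-type uninjured libraries. Its genotype ratio in uninjured hearts was 1.53 (1.12 to 2.01), that of ADAMTS5 was 1.15 (0.84 to 1.5) and that of ADAM11 1.34 (0.67 to 2.18).

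At 3 dpa, 3 members were called higher in the mutant and 0 lower, where 2.24% and 0.769% of all tested genes were, or 3.00% in either direction. These 3 were also called higher in uninjured hearts. MMP15 ENSDARG00000013072 had 328 and 124 counts in the mutant and wild-type 3 dpa libraries and 226 and 65 in the mutant and wild-type uninjured libraries, with genotype log2 ratios of 1.37 (1.08 to 1.69) at 3 dpa and 1.78 (1.40 to 2.22) in uninjured hearts. ADAM12 ENSDARG00000116062, a protease that mammals express in muscle and mesenchyme, had 206 and 77 counts in the mutant and wild-type 3 dpa libraries and 244 and 77 in the uninjured ones (1.37, 1.02 to 1.80, and 1.65, 1.29 to 2.06). ADAMTSL3 had 130 and 43 counts at 3 dpa and 101 and 36 in uninjured hearts, mutant before wild type (1.53, 1.07 to 2.11, and 1.45, 0.93 to 2.08). In each of these genes both mutant libraries stood above both wild-type libraries. The other ID of the same symbol was not called for MMP15 (0.21 at 3 dpa and 0.03 uninjured) or ADAM12 (0.66 and 0.70). With same-symbol counts summed, the ratios were 0.34 and 0.40 for MMP15 and 0.81 and 0.94 for ADAM12, at 3 dpa and in uninjured hearts, short of a call. The ADAM17 ID ENSDARG00000093093 had 1008 and 568 counts in the mutant and wild-type 3 dpa libraries and 626 and 300 in the uninjured ones, or 0.81 (0.66 to 0.96) at 3 dpa and 1.06 (0.87 to 1.27) in uninjured hearts. Both its mutant libraries also lay above both wild-type ones. The other ADAM17 ID had 0.05 and 0.32, and with both summed the uninjured ratio was 0.50, short of a call. In the additive fit, 5 members were higher in the mutant over both states and 0 lower past an adjusted p of 0.05 (edgeR), where 2.50% and 0.763% of all tested genes were. These were MMP15 ENSDARG00000013072, both ADAM12 IDs, ADAM17 ENSDARG00000093093 and ADAMTSL3, with edgeR adjusted p-values between 0.00888 and 0.0373. For genotype, the fit takes the uninjured and 3 dpa states as replicates of each other. Its wild-type side includes the uninjured library with liver transcripts.

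**Figure D4:**
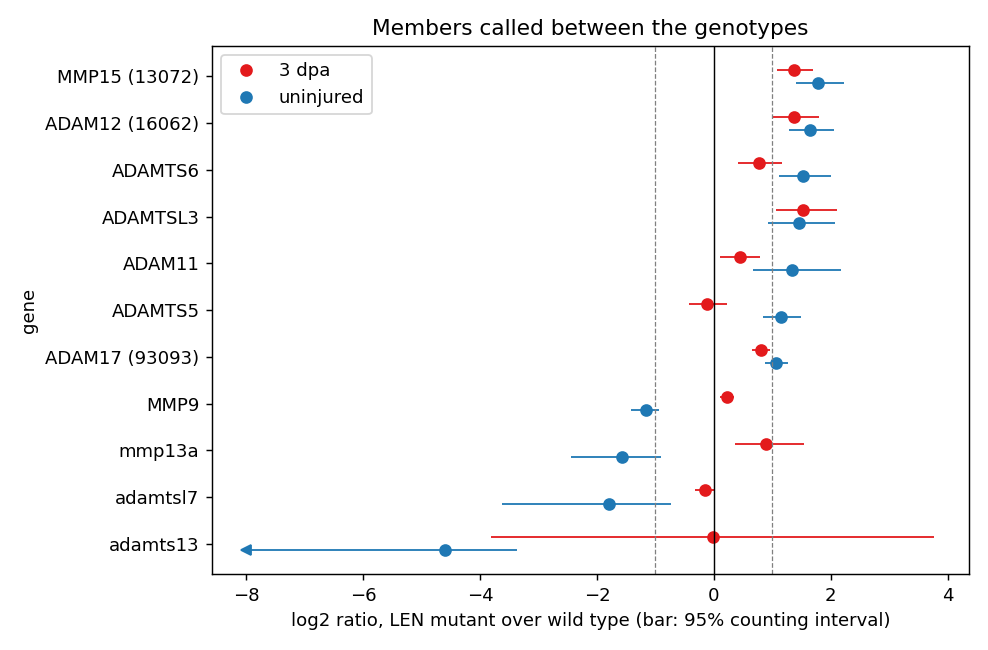
Log2 ratio of LEN mutant over wild type at 3 dpa (red) and in uninjured hearts (blue) for the members called between the genotypes, with 95% counting intervals as bars and the threshold of 1 dashed. The MMP15 and ADAM12 IDs shown and ADAMTSL3 pass on the right in both states, while MMP9, mmp13a, adamtsl7 and adamts13 pass on the left in uninjured hearts alone. An arrow marks an interval with no lower end, and a number in brackets is the end of the gene ID.

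The injury responses, mutant minus wild type, differed past the threshold for 6 members, 5 higher in the mutant and 1 lower, where 4.36% and 1.48% of all tested genes passed, or 5.84% in either direction. The median difference was -0.05, beside 0.01 over all tested genes. The 5 were MMP9 (1.39, 1.14 to 1.65), mmp13a (2.48, 1.59 to 3.36), adamtsl7 (1.63, 0.48 to 2.79), ADAMTS14 (2.09, 0.33 to 3.85) and adamts13 (4.60, 1.74 to 7.46), and ADAMTS5 was the lower one (-1.26, -1.71 to -0.82). Of these, adamts13 passed the filter through the wild-type uninjured library alone and ADAMTS14 through the mutant 3 dpa library alone. A filter passed in this way favours a difference. None of the 6 was called between the genotypes at 3 dpa. MMP9, mmp13a, adamtsl7 and adamts13 were called lower in the mutant in uninjured hearts, ADAMTS14 had 2 and 9 counts there, mutant before wild type, and ADAMTS5 was called higher there. These comparisons share their libraries, so the difference of responses and the uninjured genotype ratio are not separate evidence. All 13 liver marker IDs also passed as higher for the difference of responses, and the part of liver RNA in the 6 members was not tested.

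Other genes of the proteolytic pathway were set beside the members. Of 30 tested activators, plasmin system genes and other inhibitors, 9 were called higher with injury in each genotype, and 0 (mutant) and 5 (wild type) were called lower. For the 3 lists of pathway genes, the shares over all tested genes were 14.7% higher and 5.62% lower in the mutant and 13.2% and 6.76% in wild type, and nothing particular to a list is read from its count. The plasminogen activator plaua had 208 and 5 counts in the mutant 3 dpa and uninjured libraries and 174 and 20 in the wild-type 3 dpa and uninjured libraries (4.53 and 2.61). It was called lower in the mutant uninjured library (-1.69) and passed the filter through the 3 dpa libraries alone. The other copy, PLAU ENSDARG00000039145, was not called (-0.04 in the mutant and -0.06 in wild type). RECK, a membrane inhibitor of MMPs, had 0.04 and -0.09. The proprotein convertase FURIN, which activates many of these enzymes, had -0.28 and -0.10 for ENSDARG00000062909 and 0.94 and 0.88 for ENSDARG00000070971, neither called. PLG and f2, made in liver, were among the 5 lower in wild type, with 617 and 677 counts in uninjured wild-type hearts and at most 15 elsewhere.

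Partners and shed substrates of ADAM10 and ADAM17 gave 6 calls higher and 3 lower of 35 tested in the mutant, and 5 and 1 in wild type. The tumour necrosis factor genes tnfa and tnfb and the growth factor HBEGF (ENSDARG00000031246) were called higher in both genotypes, the last at 1.30 in the mutant and 1.20 in wild type. The more abundant copy hbegfa was not called, at -0.21 in the mutant and -0.31 in wild type. Its levels were 46.2 to 58.5 scaled CPM over the 4 libraries, and those of HBEGF 3.82 to 10.2. Counts of tnfa were low, at 22 and 2 in the mutant 3 dpa and uninjured libraries and 41 and 0 in the wild-type ones. It passed the filter through the wild-type 3 dpa library alone. The filter was also passed through the 3 dpa libraries alone by tnfb. Its levels were 2.01 and 0.628 scaled CPM in the mutant 3 dpa and uninjured libraries and 1.67 and 0.695 in the wild-type ones. NOTCH1 ENSDARG00000052094 had -1.15, called lower, in mutant hearts and -0.80, not called, in wild-type hearts. Their difference of -0.35 (-0.43 to -0.27) was not called. In uninjured hearts this ID was called higher in the mutant than in wild type (1.26, 1.21 to 1.31). The other NOTCH1 ID, ENSDARG00000103554, was not called with injury (-0.76 in the mutant and -0.57 in wild type). Nor was it called between the genotypes in uninjured hearts (0.26). The scaffold partner FRMD8 had 0.22 and 0.10. Of 18 tested ADAMTS substrates and partners, 4 were called higher and 1 lower in the mutant, and 5 and 1 in wild type. The aggrecan gene acana was lower in both, with 1588 and 2491 counts in the mutant 3 dpa and uninjured libraries and 1047 and 3089 in the wild-type 3 dpa and uninjured libraries (-1.09 and -1.97). The versican genes differed: vcanb was called higher in the mutant (1.12) and lay at 0.64 in wild type, while vcana lay at -0.19 in the mutant and was called higher in wild type (1.35). The difference of responses of vcana was called lower in the mutant (-1.54, -2.08 to -1). In uninjured hearts vcana was called higher in the mutant than in wild type (1.30, 0.86 to 1.81). At 3 dpa it was not called between the genotypes (-0.24, -0.56 to 0.07).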

How the data were processed

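Heart RNA-seq of 4 zebrafish libraries, 1 per group, was analysed from raw read counts per Ensembl gene ID deposited by the authors. The submitters' processing notes name GRCz11, HISAT2 and featureCounts. Per the file headers each library derives from first reads on lane 8. Strand setting and treatment of multi-mapping reads are not given in the sources used here, so counts of near-identical copies are uncertain. Symbols came from a gene name table that paired 29201 of 32520 IDs. Neighbours and overlaps came from RefSeq's GRCz12tu gene list.

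Libraries were scaled by TMM (edgeR 4.0.16, R 4.3.3). Ratios used log2 CPM with a prior count of 2. The filter was 1 scaled CPM in 1 library, and intervals were Clopper-Pearson at 95% for ratios, Wilson for shares and delta-method for differences of responses. With 1 library on each side, a single contrast has no residual degrees of freedom and no p-value; an additive genotype and injury fit was made with edgeR's quasi-likelihood test, and with DESeq2 1.42.0 as an alternative. Calls were made over all genes. The same steps were run on simulated counts that held counting error only. Those counts had no variation between hearts, so that run cannot test the calls against it. Python 3.11.15 with scipy 1.17.1 did the rest. The labels describe no molecular identifiers and reads may include PCR copies, so intervals and floors cover counting error only.

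Counts or levels in every library are given for members called in an injury contrast, for those called between genotypes or in the difference with at least 5 scaled CPM or 2 such calls, and for the 2 most abundant of each family. Members, role groups and lists were chosen with earlier results of these data known. Alternatives were other scalings, prior counts and filters, exchanged uninjured libraries and summed same-symbol counts, the last 2 and the additive fit chosen after seeing the data.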

Additional observations from a re-analysis of the deposited data

Results flagged for a closer look

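For 3 members the mutant and wild-type injury ratios had opposite signs and their difference passed the threshold. With 1 library per group the difference was not tested against variation between hearts. For mmp13a it was 2.48 on the log2 scale, with 76 and 20 counts in the LEN mutant 3 dpa and uninjured libraries and 39 and 63 in the wild-type 3 dpa and uninjured libraries. For adamts13 it was 4.60, which depends on the prior count because the mutant libraries had 2 counts at 3 dpa and 0 uninjured. For ADAMTS5 it was -1.26, with a wild-type response of 0.12 whose interval (-0.23 to 0.48) includes 0.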

How the results depend on the processing

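Under scaling to the total count, the members called with injury were 25 higher and 0 lower in the mutant and 21 higher and 1 lower in wild type, and 2 lay below both uninjured libraries in both 3 dpa libraries. That scaling moved the median of all tested genes to 0.36 in the mutant and 0.30 in wild type, beside 0.96 and 0.85 for the members. With a prior count of 10, 1 member was called lower in each genotype. With no filter, 5 were called lower with injury in wild type, 2 had a lower response in the mutant, and 11 lay below in both 3 dpa libraries. With a filter of 5 scaled CPM, the calls lower with injury were 1 in the mutant and 0 in wild type, 2 were lower in the mutant in uninjured hearts, 2 had a higher response in the mutant, and 3 lay below in both 3 dpa libraries. With the mutant uninjured library in place of the wild-type one, a choice made after seeing the data, wild-type injury gave 17 calls higher and 5 lower, and with the wild-type one in place of the mutant one, mutant injury gave 25 and 2. Where more or fewer genes were tested the counts follow the filter, and elsewhere the cause was not tested. Of 70 ratios of single members, the call was lost for 3 under upper-quartile scaling, 4 with a prior count of 10 and 3 under the total count, which gained 8, and for 0 under DESeq2 size factors or a prior count of 0.5. Summing the counts of IDs that share a symbol, chosen after seeing the data, ended 7 calls and added 1 among 17 ratios. No called ratio changed sign under these. With the other genotype's uninjured library in place, the called injury ratio turned sign for mmp13a (-0.16 in the mutant and 0.51 in wild type), ADAMTS5 in the mutant (0.01) and adamts13 in wild type (0.91, from counts at or under 3), and 5 other calls were lost. In the additive fit, members lower at 3 dpa were 0 under the total count, 1 with a filter of 5 scaled CPM and 1 by DESeq2, and members higher in the mutant were 3 under the total count and 3 by DESeq2. No paired analysis was possible because each group had 1 library and the labels give no replicate numbers. Depth limits mmp13b, MMP28, ADAMTS14, adamtsl7 and adamts13, each with under 10 counts in at least 1 library.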
